A study of Mus musculus with 6 samples.

Results

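The mitochondrial genome carries its own protein-coding genes, and the counts on 9 of them, *mt-Nd1*, *mt-Nd2*, *mt-Nd4*, *mt-Nd5*, *mt-Cytb*, *mt-Co1*, *mt-Co2*, *mt-Co3* and *mt-Atp6*, were compared between double mutant and wild-type duodenal villi. The genes were chosen by name, as the rows whose Ensembl identifier maps to one of these symbols, and all 9 were found among the 20409 features of the count table. They are 9 of the 13 mitochondrial protein-coding genes and of the 34 mitochondrial rows in that table. RNA from the villus epithelium of the duodenum of 3 wild-type and 3 double mutant mice was enriched for poly(A) tails and sequenced in bulk, with a library for each mouse. Double mutant mice carried Smad4 fl/fl and Ctnnb1 exon 3 fl/wt alleles and the Villin-CreERT2 transgene, which acts throughout the intestinal epithelium. Tamoxifen was injected to remove both Smad4 alleles and exon 3 of 1 beta-catenin allele, a loss of function and a gain of function, and the villi were taken about a week later. Wild-type mice were uninjected littermates, so that the genotype and the tamoxifen injection cannot be told apart. Each group held 1 male and 2 females, and ages were matched between the groups but are not given in the sources used here.

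The proteins made from these genes sit in the inner mitochondrial membrane, at the core of the respiratory chain. ND1, ND2, ND4 and ND5 form part of the proton-pumping membrane arm of complex I, cytochrome b carries electrons through complex III, COX1, COX2 and COX3 are the core of cytochrome c oxidase (complex IV), and ATP6 lines the proton path of ATP synthase (complex V). Mitochondrial DNA is transcribed into long precursors that hold several genes, and the transfer RNAs between them are cut out to release the messenger RNAs, most of which then receive a poly(A) tail. *mt-Nd3*, *mt-Nd4l* and *mt-Nd6* of complex I and *mt-Atp8* of complex V are the remaining mitochondrial protein-coding genes. The other subunits of these complexes, and the enzymes that copy, cut, protect and destroy mitochondrial RNA, are encoded in the nucleus. Enterocytes of the villus absorb and export nutrients at a high energy cost and are rich in mitochondria.

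In the mm9 mouse genome all 9 genes lie without introns on the plus strand of the mitochondrial chromosome, which has 16299 bases. *mt-Nd1* spans chrM:2751-3707, *mt-Nd2* spans chrM:3914-4951, and *mt-Co1* spans chrM:5328-6872. *mt-Co2* follows at chrM:7013-7696, *mt-Atp6* at chrM:7927-8607 and *mt-Co3* at chrM:8607-9390. *mt-Nd4* lies at chrM:10167-11544, *mt-Nd5* at chrM:11742-13565 and *mt-Cytb* at chrM:14145-15288. *mt-Atp6* overlaps *mt-Atp8* and *mt-Co3*, *mt-Nd4* overlaps *mt-Nd4l*, and the end of *mt-Nd5* overlaps *mt-Nd6*, which lies on the other strand.

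The nuclear genome holds copies of mitochondrial DNA, and 2 of them cover several of these genes. A stretch on the minus strand of chromosome 1, chr1:24618374-24623027, matched chrM:6390-11042 over 4654 aligned bases at 99.936% identity, with 2 substitutions and 1 gap. The whole of *mt-Co2*, *mt-Atp6* and *mt-Co3* lies inside it, with 63.6% of *mt-Nd4* and 31.3% of *mt-Co1*. *mt-Nd1*, *mt-Nd2*, *mt-Nd5* and *mt-Cytb* lie outside it. The other copy, chr2:22442808-22446054 on the minus strand, matched chrM:4441-7699, which holds part of *mt-Nd2* and the whole of *mt-Co1* and *mt-Co2*, at 97.362% identity with 72 substitutions. The edge of the chromosome 1 copy inside *mt-Co1* is shown because it is where reads of that gene stop being distinguishable from the nuclear copy, with the first 40 bases inside the copy in capitals and both sequences in the direction of the mitochondrial gene:
mt-Co1, chrM:6350-6429: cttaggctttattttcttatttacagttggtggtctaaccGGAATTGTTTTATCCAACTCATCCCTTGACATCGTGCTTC
copy, chr1:24622988-24623067, minus strand: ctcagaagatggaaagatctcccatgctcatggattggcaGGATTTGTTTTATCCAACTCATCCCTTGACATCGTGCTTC
Before the capitals the sequences did not align, and within them they differ at 1 base, A6393T, counted from 1 along the mitochondrial chromosome with the mitochondrial base first. The only other substitution, T9461C, lies in *mt-Nd3* and is shown in capitals with 20 bases on each side:
mt-Nd3, chrM:9441-9481: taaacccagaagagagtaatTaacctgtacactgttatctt
copy, chr1:24619936-24619976, minus strand: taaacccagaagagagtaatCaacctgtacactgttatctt
The gap lies in *mt-Tr*, the arginine transfer RNA gene, where the copy has 1 more A (capital) in a run of that base:
mt-Tr, chrM:9801-9840: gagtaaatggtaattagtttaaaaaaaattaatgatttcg
copy, chr1:24619576-24619616, minus strand: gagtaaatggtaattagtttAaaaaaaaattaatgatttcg

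A read can be placed on 1 of 2 such sequences only where it covers a difference between them. Over windows of 150 bases, the length of the reads, all windows of *mt-Co2*, *mt-Atp6* and *mt-Co3* occurred unchanged in a nuclear copy. For *mt-Nd4* this held for 59.2% of the windows and for *mt-Co1* for 23.6%, and for *mt-Nd1*, *mt-Nd2*, *mt-Nd5* and *mt-Cytb* for 0%. With windows of 300 bases, closer to a pair of reads, the shares were 53.5% for *mt-Nd4* and 14.4% for *mt-Co1* and still 100% for *mt-Co2*, *mt-Atp6* and *mt-Co3*. Whether a read with several equally good places was counted is not given in the sources used here, so the counts of these 5 genes are uncertain as levels, most of all those of *mt-Co2*, *mt-Atp6* and *mt-Co3*.

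Between 19678507 and 26337318 reads per mouse were counted, and 3 counts, the smallest level taken as detected, corresponded to 0.114 to 0.152 CPM (counts scaled to a common library total), a floor that covers counting error only. Levels are CPM scaled by the TMM factors of edgeR. The library of wild-type mouse 1 was the deepest and stood apart in its marker genes, with 0.0114% of its counts on goblet cell markers and 0.000721% on Paneth cell markers, against up to 1.08% and 0.144% in the other wild-type mice, and 0.493% to 0.547% and 0.0166% to 0.0263% in the double mutant mice. *Smad4*, the deleted gene, fell from 148 ± 30.3 (SD, n = 3) to 31.7 ± 5.40 CPM, a log2 fold change of -2.22 (adjusted p = 0.000145 by edgeR's quasi-likelihood test), and *Ctnnb1*, whose mutation removes 1 exon, was at 932 and 841 CPM (adjusted p = 0.359).

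**Figure D1:**
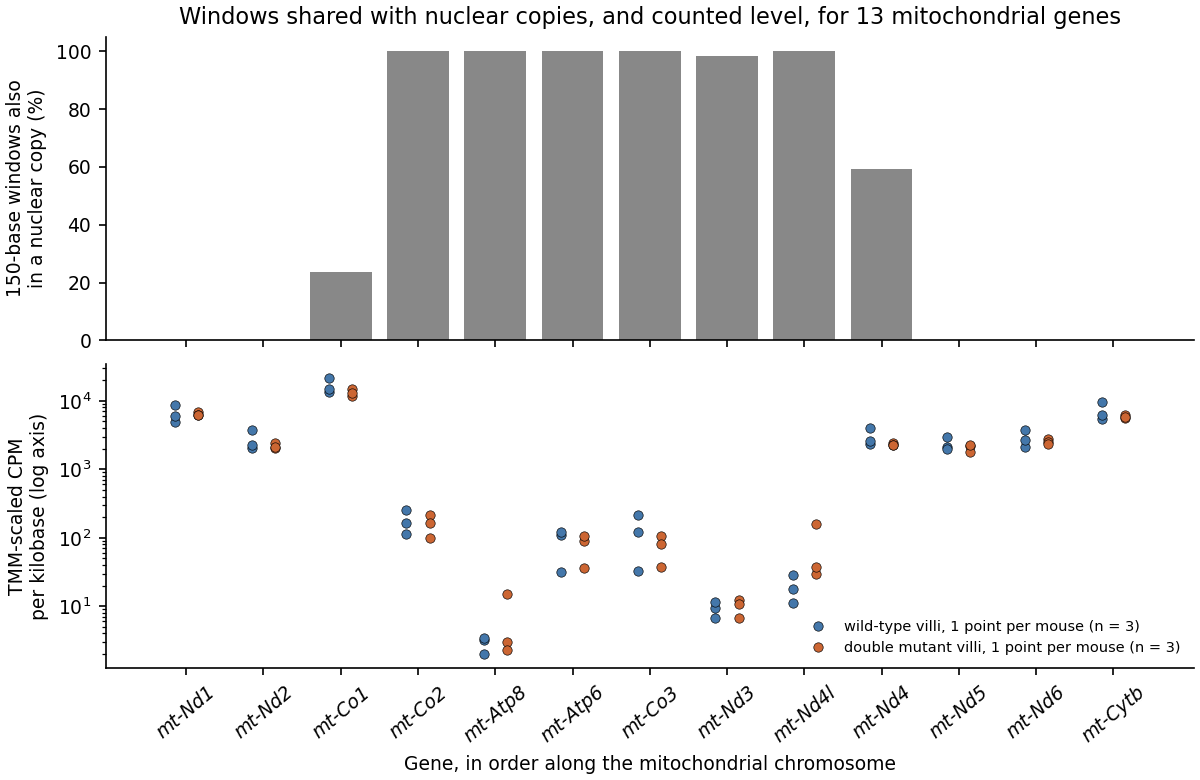
Top: percent of the 150-base windows of each of the 13 mitochondrial protein-coding genes that occur unchanged in a nuclear copy. Bottom: TMM-scaled CPM per kilobase of the same genes on a log axis, 1 point per mouse, wild-type blue and double mutant orange. The 6 genes with at least 98.5% of their windows in a nuclear copy lie far below the other 7 in every mouse.

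The 9 genes together took 6.16%, 3.82% and 4.36% of all counts in the wild-type mice and 5.02%, 4.11% and 4.48% in the double mutant mice. The groups overlapped, with means of 4.78 ± 1.22% and 4.54 ± 0.456% (SD, n = 3). As summed TMM-scaled CPM the wild-type mice held 67544, 40936 and 45461 and the double mutant mice 46380, 38902 and 42076. Wild-type mouse 1 was above the other 5 mice on both scales. In these bulk libraries, fewer cells of a type and less RNA per cell cannot be told apart. In the wild-type mice *mt-Co1* was the most counted row of the whole table, with 1.93% to 3.00% of all counts. In the double mutant mice *Reg3b*, which encodes a secreted antimicrobial lectin, was counted most, with 2.59% to 3.87%, and *mt-Co1* took 1.89% to 2.45%.

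Per kilobase of gene, so that genes can be compared, the levels fell into 4 tiers. *mt-Co1* was highest, at 16526 ± 4222 CPM per kilobase in wild-type against 13018 ± 1546 in double mutant villi (SD, n = 3). *mt-Cytb* (7034 ± 2167 and 5853 ± 285) and *mt-Nd1* (6584 ± 2004 and 6386 ± 433) came next. Their group means were within 1 SD of each other in wild-type villi, but within each mouse *mt-Cytb* was above *mt-Nd1* in the 3 wild-type mice and below it in the 3 double mutant mice, an order that was noticed in the values and not tested. *mt-Nd4* (2983 ± 947 and 2328 ± 73.5), *mt-Nd2* (2691 ± 925 and 2196 ± 177) and *mt-Nd5* (2332 ± 548 and 2097 ± 260) followed, with neighbours in that order within 1 SD of each other in wild-type villi. *mt-Co2* (176 ± 71.1 and 160 ± 59.2), *mt-Co3* (123 ± 92.7 and 75.0 ± 35.1) and *mt-Atp6* (87.3 ± 48.4 and 77.7 ± 36.9) lay far below. Among them *mt-Co2* was above *mt-Co3* and *mt-Atp6* in all 6 mice, and the means of *mt-Co3* and *mt-Atp6* were within 1 SD of each other in both groups. These last 3 are the genes that lie whole inside the chromosome 1 copy.

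Dividing instead by the number of windows found nowhere else in the genome changed the place of 1 gene. On this scale, CPM per 1000 such windows, *mt-Nd4* stood at 8187 ± 2600 in wild-type villi, beside *mt-Cytb* at 8087 ± 2492 and *mt-Nd1* at 7798 ± 2373. *mt-Co1* stayed highest at 23950 ± 6120, and *mt-Nd2* (3142 ± 1080) and *mt-Nd5* (2539 ± 597) stayed lowest of the 6 genes that have such windows. The scale assumes that reads within the shared windows were left out of the counts, which was not tested. *mt-Co2*, *mt-Co3* and *mt-Atp6*, whose windows are all shared, still had at least 430 counts in every mouse, so the assumption may hold only in part.

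None of the 9 genes passed the test between double mutant and wild-type villi. Of the 13346 genes tested by edgeR, 36.8% were called at an adjusted p under 0.05 (19.7% higher and 17% lower), whereas 0 of the 9 were called in either direction and 0 had an unadjusted p under 0.05. For 0 of the 9 did the levels of the groups stay apart without overlap, against 52.4% of all genes tested. All 9 fitted log2 fold changes were below 0, with a median of -0.27 beside 0.02 over all genes tested. The direction rested on 1 library: without wild-type mouse 1 the median was 0.018. With library sizes alone in place of TMM factors, the median of the 9 was -0.066 while that of all genes moved to 0.22, and the calls over all genes shifted from 2632 higher and 2273 lower to 3732 and 1425.

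**Figure D2:**
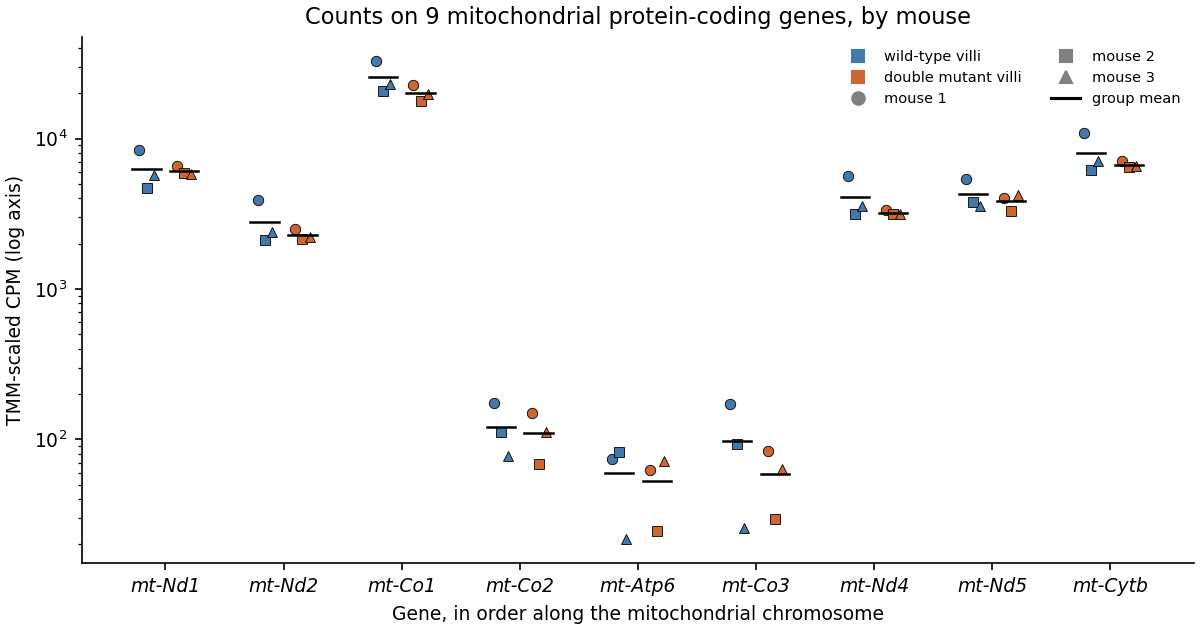
TMM-scaled CPM (log axis) of the 9 genes in each mouse, wild-type blue and double mutant orange. Symbols give the mouse number within its group and bars the group means. Wild-type mouse 1 (blue circle) is the highest mouse for 8 of the 9 genes, and the groups overlap for every gene.

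Among the complex I genes, *mt-Nd1* was counted at 8429, 4707 and 5765 CPM in the wild-type mice and at 6589, 5901 and 5845 CPM in the double mutant mice. Wild-type mouse 1 was high and wild-type mouse 2 low, with the double mutant mice between them. Its log2 fold change was -0.04 (SE 0.205, 95% interval -0.511 to 0.423, adjusted p = 0.885 by edgeR's quasi-likelihood test), the smallest of the 9 in this fit. Without wild-type mouse 1 it was 0.22 and with library sizes alone 0.15, and *mt-Nd1* was not called in either fit.

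*mt-Nd2* stood at 3890, 2106 and 2384 CPM in wild-type villi and at 2489, 2144 and 2204 CPM in double mutant villi. The double mutant mice lay within the range of the wild-type mice, and the log2 fold change was -0.29 (SE 0.222, -0.802 to 0.214, adjusted p = 0.333). *mt-Nd4* was at 5601, 3171 and 3559 CPM in wild-type villi and at 3323, 3135 and 3164 CPM in double mutant villi. It changed by -0.36 on the log2 scale (SE 0.206, -0.826 to 0.111, adjusted p = 0.207) and had the lowest adjusted p of any of the 9 genes in any fit tried, 0.0924, still above the threshold. *mt-Nd5*, the longest of the 9, was at 5399, 3805 and 3556 CPM in wild-type villi and at 4001, 3288 and 4185 CPM in double mutant villi, with a log2 fold change of -0.15 (SE 0.183, -0.57 to 0.263, adjusted p = 0.545).

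*mt-Cytb*, the only mitochondrial gene of complex III, gave 10854, 6155 and 7132 CPM in wild-type villi and 7067, 6455 and 6566 CPM in double mutant villi. Wild-type mouse 1 alone stood above the double mutant mice by a wide margin, and the log2 fold change was -0.27 (SE 0.204, -0.73 to 0.2, adjusted p = 0.34).

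Of the complex IV genes, *mt-Co1*, which encodes the subunit that binds the haem and copper where oxygen is reduced, had 791118, 380564 and 453868 counts in the wild-type mice and 481754, 385000 and 418521 in the double mutant mice. As TMM-scaled CPM this came to 32953, 20703 and 22941 against 22616, 17856 and 19865, with the highest double mutant mouse just under wild-type mouse 3. The log2 fold change of -0.34 (SE 0.194, -0.786 to 0.098, adjusted p = 0.199) did not pass the test. *mt-Co2*, whose product receives electrons from cytochrome c, had 4160, 2049 and 1531 counts in wild-type villi and 3183, 1476 and 2343 in double mutant villi. Its log2 fold change of -0.14 had a wide interval (SE 0.375, -1.04 to 0.764, adjusted p = 0.802). *mt-Co3* had 4105, 1722 and 510 counts in wild-type villi and 1789, 636 and 1328 in double mutant villi. Its log2 fold change of -0.72 was the least precise of the 9 (SE 0.773, -2.71 to 1.27, adjusted p = 0.515) and was -0.021 without wild-type mouse 1.

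*mt-Atp6* of complex V had 1771, 1522 and 430 counts in wild-type villi and 1321, 527 and 1521 in double mutant villi. Wild-type mouse 3 and double mutant mouse 2 were both low, and the log2 fold change was -0.17 (SE 0.635, -1.78 to 1.44, adjusted p = 0.86). The same 2 mice were the lowest of their groups for *mt-Co2* and *mt-Co3*. Each of the 3 genes inside the chromosome 1 copy had at least 430 counts in every mouse, yet the standard errors of their fold changes were 0.375 to 0.773, against 0.183 to 0.222 for the other 6.

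**Figure D3:**
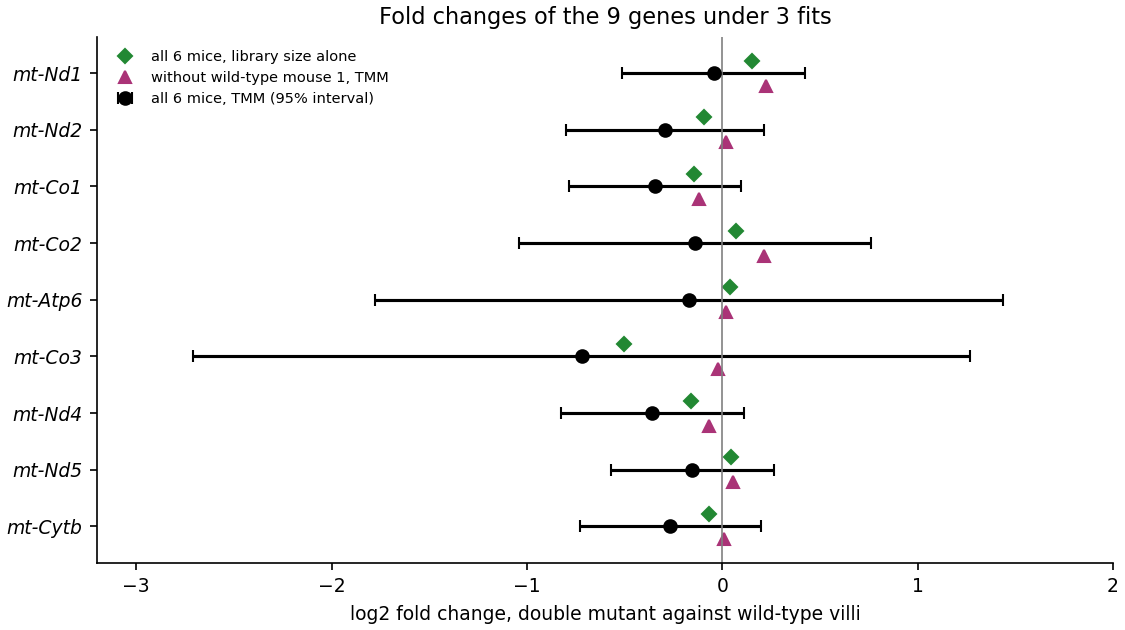
Log2 fold change (double mutant against wild-type villi) of the 9 genes in the fit of all 6 mice with TMM (black, with 95% intervals), with library sizes alone (green diamonds) and without wild-type mouse 1 (purple triangles). Every black interval crosses 0, and 6 of the 9 genes lie above 0 without wild-type mouse 1.

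The genes moved together from mouse to mouse within each of 2 sets. Over the 6 mice, Pearson's r between log2 levels was 0.738 to 0.996 for the 15 pairs among *mt-Nd1*, *mt-Nd2*, *mt-Nd4*, *mt-Nd5*, *mt-Cytb* and *mt-Co1*. For the 3 pairs among *mt-Co2*, *mt-Co3* and *mt-Atp6* it was 0.821 to 0.938, and for the 18 pairs between the sets it was 0.117 to 0.876. The points share their libraries and 1 of the 6, wild-type mouse 1, lies far out, so that these are descriptions only. The 5 nuclear genes whose pattern over the 6 mice was most like the summed level of the 9, out of 7896 with a mean of at least 10 CPM, were *4933439F18Rik* (r = 0.996), *Ces2e*, a carboxylesterase (0.993), *Sec22a* (0.987), *Slc25a45*, a member of the mitochondrial carrier family (0.981), and *Gstt1*, a glutathione transferase (0.979). They were picked as the highest r out of those 7896 over 6 mice, so the size of r carries little weight. None of these 5 was called between the groups, which says little, since they were picked to follow a sum whose groups overlapped.

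Within the counts on the 9 genes, the shares of 2 of them did not overlap between the groups, a lack of overlap that 52.4% of all genes tested showed in their levels. *mt-Nd1* made up 12.5%, 11.5% and 12.7% of these counts in the wild-type mice and 14.2%, 15.2% and 13.9% in the double mutant mice. The groups did not overlap, with means of 12.2 ± 0.632% and 14.4 ± 0.665% (SD, n = 3). *mt-Co1* made up 48.8%, 50.6% and 50.5% in wild-type villi and 48.8%, 45.9% and 47.2% in double mutant villi, and its groups were barely apart, with 48.79% in wild-type mouse 1 and 48.76% in double mutant mouse 1 (means 49.9 ± 1.00% and 47.3 ± 1.43%). Since shares add up to 100, a higher share of one gene lowers the others. Set directly against each other, there were 25.6, 22.7 and 25.1 *mt-Nd1* counts per 100 *mt-Co1* counts in wild-type villi and 29.1, 33.0 and 29.4 in double mutant villi. This ratio was formed after the shares were seen and restates them. No test was run on these proportions, and for groups of 3 the smallest p of an exact permutation test, two-sided, is 0.1.

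The shares of the other 7 genes overlapped between the groups. *mt-Cytb* made up 15.6% and 15.8% of the counts on average in wild-type and double mutant villi, *mt-Nd5* 8.37% and 9.01%, *mt-Nd4* 7.96% and 7.58%, and *mt-Nd2* 5.38% and 5.37%. *mt-Co2* (0.233% and 0.254%), *mt-Co3* (0.180% and 0.136%) and *mt-Atp6* (0.120% and 0.123%) each stayed under 1% of them. Windows shared with the nuclear copies leave the counts of *mt-Co1*, *mt-Nd4*, *mt-Co2*, *mt-Co3* and *mt-Atp6* uncertain. The shares of every gene are therefore shares of counts and not of messenger RNA.

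**Figure D4:**
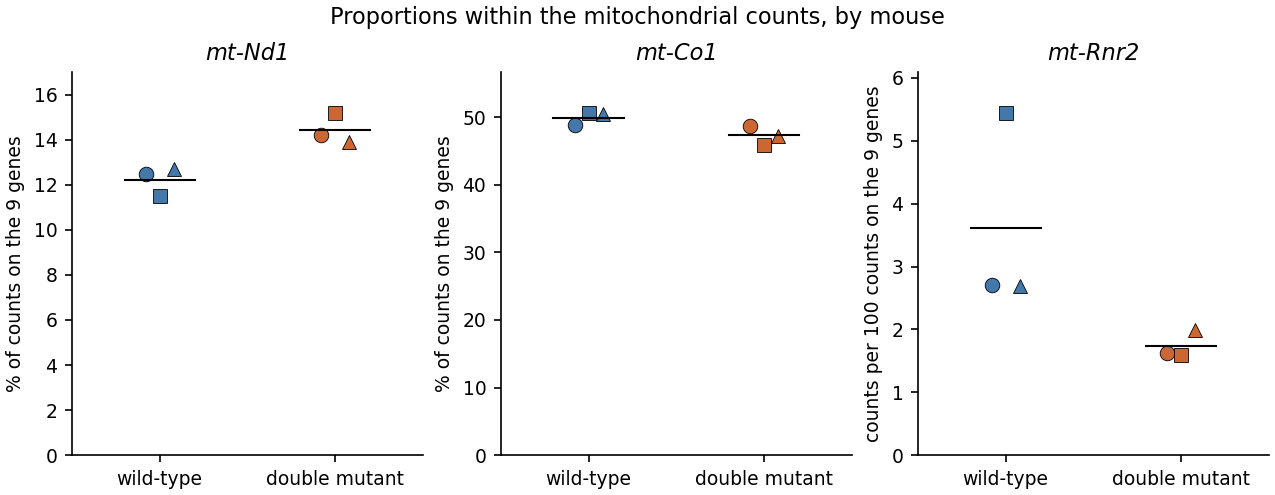
Left and middle: *mt-Nd1* and *mt-Co1* counts as a percent of the counts on the 9 genes. Right: *mt-Rnr2* counts per 100 counts on the 9 genes. Each symbol is a mouse (circle 1, square 2, triangle 3 of its group), bars are group means and the axes start at 0. The groups are apart in all 3 panels, narrowly for *mt-Co1*.

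Of the 25 mitochondrial rows outside the 9 genes, 19 were tested and 2 were called, both lower, beside 17% of all genes called lower. Both ribosomal RNAs, which are made from the same strand as the 9 genes and form the mitochondrial ribosome, were lower in double mutant villi. *mt-Rnr2*, the large ribosomal RNA, fell from 1760 ± 504 to 736 ± 107 CPM (-1.26 on the log2 scale, SE 0.220, edgeR adjusted p = 0.00328). This call held in all 15 other fits, those without each mouse included. *mt-Rnr1*, the small ribosomal RNA, went from 791 ± 297 to 402 ± 79.1 CPM (-0.98, SE 0.284, adjusted p = 0.0311), and its call was lost in several fits, among them those with library sizes alone (adjusted p = 0.0603), with no filter on low counts (0.0705), with sex in the fit (0.0524) and without wild-type mouse 1 (0.0833), wild-type mouse 2 (0.0768), double mutant mouse 1 (0.0887) or double mutant mouse 2 (0.111). Ribosomal RNA is depleted when polyadenylated RNA is selected, so that its counts also depend on that step, which was not tested. The paper gives a lower limit on RNA integrity for its libraries, and integrity was not compared between the mice here.

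Against the 9 genes, there were 2.71, 5.44 and 2.69 *mt-Rnr2* counts per 100 of their counts in the wild-type mice and 1.62, 1.60 and 1.99 in the double mutant mice. Wild-type mouse 2 stood far above the others, and the groups did not overlap without it either. For *mt-Rnr1* the values were 1.18, 2.65 and 1.09 in wild-type villi and 0.879, 0.822 and 1.14 in double mutant villi, which overlapped.

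The other 4 protein-coding genes were also not called. *mt-Nd6*, the complex I gene of the other strand, stood at 1489 ± 432 and 1328 ± 112 CPM (log2 fold change -0.17, adjusted p = 0.549). Whether the counting kept the strands apart is not given in the sources used here. Reads from the opposite strand may therefore be among the counts of *mt-Nd6*. *mt-Nd3*, *mt-Atp8* and *mt-Nd4l* lie inside the chromosome 1 copy and were counted at 3.21, 0.593 and 5.67 CPM in wild-type villi and at 3.43, 1.37 and 22.2 CPM in double mutant villi. *mt-Nd4l* had 127, 155 and 65 counts in the wild-type mice and 186, 1007 and 234 in the double mutant mice, so that its groups did not overlap and double mutant mouse 2 stood far out (log2 fold change 1.97, adjusted p = 0.105). The table lists 19 transfer RNA genes of the mitochondrial chromosome, of which 13 passed the filter on low counts and 0 were called.

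Genes annotated within the chromosome 1 copy were counted as well. *Gm10925*, at chr1:24620814-24621627 over the *mt-Atp8* and *mt-Atp6* part of the copy, had 1426, 1446 and 747 counts in the wild-type mice and 1354, 746 and 1414 in the double mutant mice. Wild-type mouse 3 and double mutant mouse 2 were the low mice here too, as for *mt-Atp6*. *Gm10222*, at chr1:24619243-24619539 over the *mt-Nd4l* part, had 662, 423 and 337 counts in wild-type villi and 554, 407 and 400 in double mutant villi. Its counts exceeded those of *mt-Nd4l* in every mouse other than double mutant mouse 2. Neither gene was called (adjusted p = 0.857 and 0.782).

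The nuclear genes for the other subunits of the same complexes were mostly not called either. Of 74 nuclear subunits of complexes I, III, IV and V, 73 were tested, 4 were called higher and 0 lower, beside 19.7% and 17% of all genes, and their median log2 fold change was 0.06. Complex I had 0 of 36 called. The 4 called higher were *Uqcrq* of complex III (207 to 315 CPM, adjusted p = 0.0337), *Ndufa4* of complex IV (98.9 to 175 CPM, adjusted p = 0.0444), and *Atp5g2* (65.6 to 99.0 CPM, adjusted p = 0.00921) and *Atp5g1* (159 to 209 CPM, adjusted p = 0.0422), which encode the same ring protein of ATP synthase. Of these, the call of *Atp5g2* was kept without each mouse in turn, and the count of 4 dropped to 1 without wild-type mouse 2 or 3 or double mutant mouse 2 or 3, and to 2 without double mutant mouse 1. In complex II, which has no mitochondrial gene, *Sdha* was lower (917 to 704 CPM, adjusted p = 0.0307) and 3 of 4 subunits were not called. The call of *Sdha* was lost in several fits, among them those with library sizes alone, with no filter on low counts and without each mouse other than wild-type mouse 3. The summed level of the 9 mitochondrial genes was 2.79, 2.24 and 2.21 times that of the nuclear subunits in the wild-type mice and 2.56, 1.70 and 2.09 times in the double mutant mice, and the groups overlapped.

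**Figure D5:**
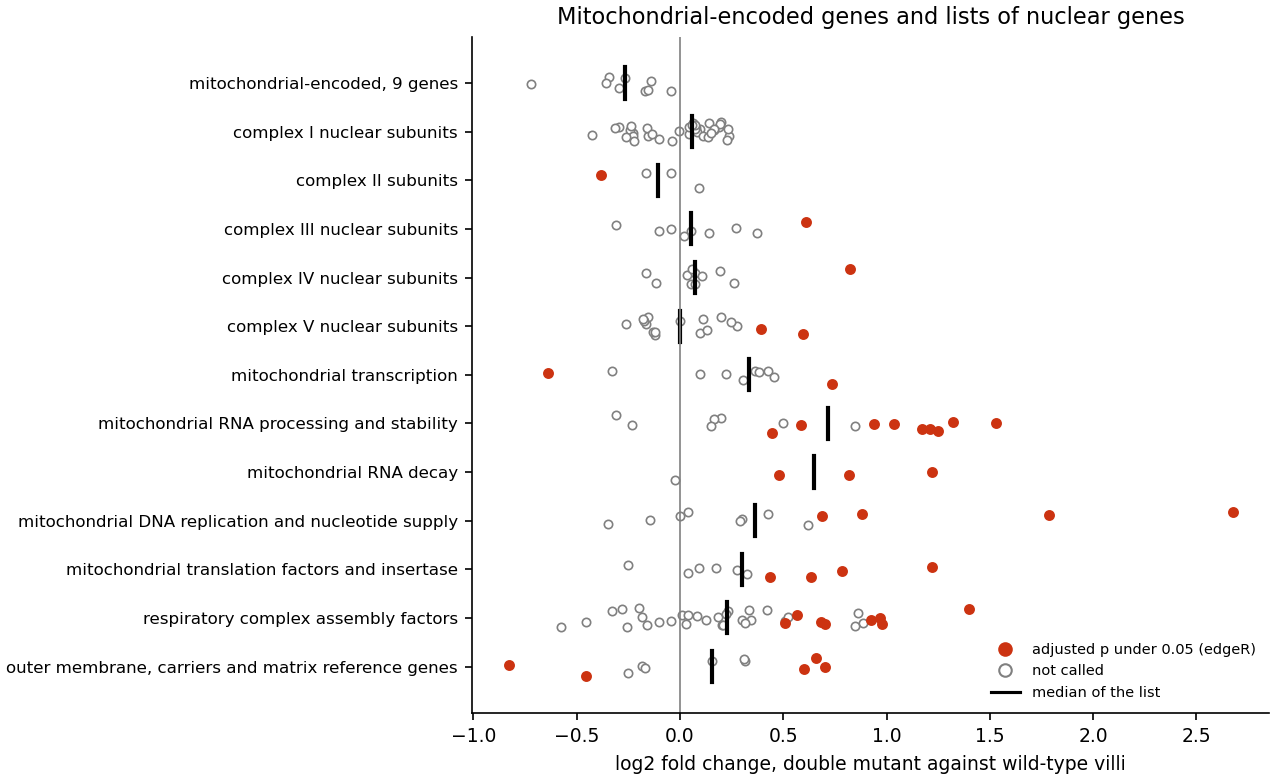
Log2 fold change (double mutant against wild-type villi) of the 9 mitochondrial genes and of each tested gene in 12 lists of nuclear genes; vertical scatter within a line has no meaning. Filled points were called at an adjusted p under 0.05 and black bars are list medians. The 9 genes lie left of 0 with none called, the nuclear subunits gather around 0 with few called, and the lists for RNA processing and decay lie mostly to the right.

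The factors that handle mitochondrial RNA were called higher or not called. Of 16 genes for processing and stability of mitochondrial RNA, 9 were higher, 0 were lower and 7 were not called (median log2 fold change 0.72), beside 19.7% of all genes called higher. *Elac2*, which cuts the 3′ end of transfer RNAs out of the precursor, rose from 5.60 ± 0.580 to 14.0 ± 0.593 CPM (1.32, adjusted p = 0.000645), and *Hsd17b10*, a subunit of the enzyme that cuts the 5′ end, rose from 17.8 ± 1.32 to 34.0 ± 3.07 CPM (0.94, adjusted p = 0.000986). *Lrpprc*, which binds and stabilises mitochondrial messenger RNAs, rose from 41.6 ± 4.18 to 85.3 ± 19.3 CPM (adjusted p = 0.0023). Its partner *Slirp* stood at 14.0 and 19.7 CPM and was not called (adjusted p = 0.0657). Of 4 genes for mitochondrial RNA decay, 3 were higher, among them *Pnpt1*, a nuclease of the mitochondrial degradosome (14.3 to 25.3 CPM, adjusted p = 0.0072), and *Rexo2*, which clears short RNA remnants (4.62 to 10.8 CPM, adjusted p = 0.00934). The count of 9 was 7 without wild-type mouse 2 or 3 or double mutant mouse 2, and 12 with library sizes alone. The count of 3 was 2 without wild-type mouse 2 or 3 or double mutant mouse 2 or 3. The calls of *Elac2*, *Hsd17b10*, *Lrpprc*, *Pnpt1* and *Rexo2* were kept without each mouse in turn.

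Among 10 genes for transcription of the mitochondrial genome, 1 was higher and 1 lower (3 higher with library sizes alone), beside 19.7% and 17% of all genes. *Tfb2m*, which opens the promoter for the polymerase, rose from 7.76 ± 0.955 to 12.9 ± 1.36 CPM (adjusted p = 0.011), and *Mterf2*, of the mitochondrial termination factor family, fell from 23.3 ± 2.73 to 14.9 ± 0.992 CPM (adjusted p = 0.00856). *Polrmt*, the polymerase itself, was at 20.4 and 25.1 CPM (adjusted p = 0.077), and *Tfam*, which packages the DNA and starts transcription, was at 23.5 and 27.3 CPM (adjusted p = 0.244), so neither passed the test. Of 12 genes for replication and nucleotide supply, 4 were higher and 0 lower, against the same shares of all genes, led by *Top1mt*, the mitochondrial topoisomerase (1.48 to 9.49 CPM, adjusted p = 0.000581), and *Dna2*, a nuclease and helicase used in the nucleus and in mitochondria (1.54 to 5.32 CPM, adjusted p = 0.00469). This count dropped to 2 without wild-type mouse 2, double mutant mouse 1 or double mutant mouse 2.

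For translation of the mitochondrial messages, 4 of 10 factors were higher and 0 lower, beside 19.7% and 17% of all genes, among them the elongation factor *Tsfm* (6.96 to 16.2 CPM, adjusted p = 0.00239) and the initiation factor *Mtif3* (17.2 to 26.7 CPM, adjusted p = 0.0068), a count that was 2 without wild-type mouse 2 or 3. Of 38 tested assembly factors of the complexes, 8 were higher and 0 lower, beside 19.7% and 17% of all genes, among them *Tmem70* of ATP synthase (18.1 to 29.1 CPM, adjusted p = 0.00311) and *Bcs1l* of complex III (2.96 to 7.80 CPM, adjusted p = 0.00432). This count was 4 without wild-type mouse 2 or 3, 3 without double mutant mouse 2 and 18 with library sizes alone.

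Reference genes for other parts of the organelle went both ways, with 3 of 11 higher and 2 lower (5 and 1 with library sizes alone), beside 19.7% and 17% of all genes. *Tomm20* and *Tomm40*, import proteins of the outer membrane, rose from 37.2 to 56.5 CPM (adjusted p = 0.0154) and from 31.8 to 51.8 CPM (adjusted p = 0.02). The count of 3 higher was 0 without wild-type mouse 2 or double mutant mouse 2 and 1 without wild-type mouse 3. *Cs*, citrate synthase of the matrix, fell from 1766 ± 165 to 994 ± 20.4 CPM (adjusted p = 0.00114), and *Slc25a5*, an exchanger of ADP and ATP, fell from 2168 to 1581 CPM (adjusted p = 0.0287). The count of 2 lower was 1 without wild-type mouse 1 or any 1 of the double mutant mice.

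Markers of the cell types that villus preparations can hold were counted as well, to be read beside the 19.7% of all genes called higher and the 17% called lower, and their part in the values above was not tested. The share of enterocyte markers was 4.81% to 5.48% in the wild-type mice and 3.59% to 3.98% in the double mutant mice, with 6 of 10 lower and 1 higher. Stem cell markers took 0.00708% to 0.0159% and 0.0252% to 0.0325%, with 3 of 6 higher. All 4 tested tuft cell markers and 5 of 6 enteroendocrine markers were lower. Of 7 tested lymphocyte and myeloid markers 2 were lower, 1 of 7 goblet markers was higher, and 0 of 6 Paneth markers were called. Wild-type mouse 1 was low in goblet and Paneth markers, and most of these fits were imprecise, such as *Muc2* (SE 1.43) and *Ang4* (SE 1.93). A goblet or Paneth marker that was not called is therefore not shown to be unchanged. Of stromal and endothelial markers 2 passed the filter and 0 were called, and of red blood cell markers none passed it.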

How the data were processed

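Raw counts were deposited by the authors, 1 column per mouse, neither normalized nor pooled. Paired reads of 150 bases had been aligned by HISAT2 (genome mm9) and assigned to genes by featureCounts. Settings for strand and for reads with several matches are not given in the sources used here. Tools and the build are named in the submitters' processing notes and the methods. Of 20073 Ensembl identifiers, 20032 were found in the GENCODE annotation of the same build. The 336 numbered transcripts outside it took 0.214% to 0.27% of the counts.

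Counts were analysed with R 4.3.3 and edgeR 4.0.16: filterByExpr (13346 genes), TMM, robust glmQLFit, glmQLFTest and Benjamini-Hochberg adjustment over all tested genes, called at an adjusted p under 0.05. The standard error is the log2 fold change over the square root of the F statistic. Replicates are different mice. Nuclear copies were found with BLAST 2.17.0 and listed from 150 aligned bases and 97% identity, which gave 5. The fit was tested on simulated data.

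The 9 genes and the gene lists were chosen with earlier results of these data known. Named are the 9 genes, the other mitochondrial rows, up to 2 called genes with the smallest adjusted p per direction in each nuclear list, the 5 nuclear genes most like the 9, and *Tfam*, *Polrmt*, *Lrpprc*, *Slirp* (listed as *1810035L17Rik*), *Tomm20*, *Smad4* and *Ctnnb1*. *Reg3b* and the genes of the copy were named, and the ratio of *mt-Nd1* to *mt-Co1* was formed, after their values were seen. Transfer RNAs are given as counts of rows. Alternatives were RLE factors, library sizes alone, scaling without the mitochondrial rows, 2 other filters, DESeq2 1.42.0, limma-voom (limma 3.58.1), a replicate block, sex as a covariate, fold thresholds, and each mouse left out.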

Additional observations from a re-analysis of the deposited data

How the results depend on the processing

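In every fit tried 0 of the 9 genes were called in either direction, so that an added fold threshold could change nothing. Their median log2 fold change, -0.27, was -0.066 with library sizes alone, and ran from -0.43 to 0.018 when 1 mouse was left out, the highest without wild-type mouse 1. *mt-Nd4*, *mt-Co1* and *mt-Co3* stayed below 0 in all 16 fits, and the other 6 genes lay above 0 in 1 to 4 of them. The log2 ratio of the mean share of counts on the 9 genes, -0.07, ran from -0.21 to 0.15 (without wild-type mouse 1) when 1 mouse was left out. Over all genes, 1425 were lower with library sizes alone against 2273 with TMM. Of the nuclear subunits of complexes I, III, IV and V, 4 were higher, against 1 to 5 with 1 mouse left out, and 1 was lower with DESeq2 against 0. Apart from the scaling and the samples that each fit uses, the cause was not tested. Same-numbered mice did not deviate together (r of 0.0123, -0.146 and 0.00792), and no mouse was most like its own number. With the replicate number as a block, *mt-Rnr1* and *Sdha* were no longer called (adjusted p = 0.09 for both), and 0 of the 9 genes, 1 nuclear subunit higher and 2084 genes higher and 1750 lower were called. Of the 23 named nuclear genes called, 16 were kept without each mouse in turn, 18 under the block and none changed sign. With 3 mice per group, the intervals leave changes such as -0.786 for *mt-Co1* and -2.71 for *mt-Co3* within reach.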
